A study of Homo sapiens with 4 samples.

Results

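The genes described here encode the DNA-binding complex of TAL1 and LMO2 and the GFI1 repressors. They are the basic helix-loop-helix factors TAL1 and LYL1, the LIM-only protein LMO2, its binding partner LDB1, the E proteins TCF3, TCF4 and TCF12, the corepressor CBFA2T3, and the zinc finger repressors GFI1 and GFI1B. Members were the rows of the expression table that carried these symbols, with rows of 1 gene identifier summed. All 10 symbols were found, and they made up 10 of 58274 gene identifiers.

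BC1, an established line of human induced pluripotent stem cells (iPSCs), was differentiated towards blood and sorted at 3 stages. Sorted on day 2 were APLNR+ mesoderm cells. Day 5 gave CD31+CD34+ cells, called HEPs below for hemogenic endothelial progenitors, and day 8 gave CD43+ cells, called HPCs for hematopoietic progenitors. The BC1 library came from the line itself, and RNA of all 4 populations was sequenced. Cells were treated with activin A and BMP4 up to day 2 and with VEGF and bFGF after it, so the culture day and the growth factors changed together with the sorted population. All 4 libraries came from the same line, and each population was 1 bulk library, so no difference below has a replicate check and no p-value is given. The sort of HEPs is described by CD31 and CD34 only, and no gate against CD43 is stated. Levels are in FPKM, the fragments of a gene scaled by transcript length in kilobases and by the library's mapped fragments in units of 1000000, so that levels of different genes can be compared.

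TAL1 or LYL1 pairs with an E protein to bind the E-box, and LMO2 and LDB1 join this pair to a GATA factor bound nearby on the DNA. TAL1, LMO2 and LYL1 are known as regulators of blood formation from the mesoderm and endothelium, and CBFA2T3, also called ETO2, holds corepressors at the complex. GFI1 and GFI1B repress transcription through histone demethylase and deacetylase complexes and are known for switching off endothelial genes as blood cells emerge.

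Library depth, as recovered from low FPKM values, lay between 19700000 fragments in BC1 and 23600000 in HEPs. Genes of the sort markers had the labelled pattern for APLNR, at 1073 FPKM in APLNR+ cells and 209 or less elsewhere, and for SPN (CD43), at 92.4 FPKM in HPCs, but SPN also reached 11.7 FPKM in HEPs. PECAM1 (CD31) was at 126 FPKM in HPCs and 93.1 in HEPs, and CD34 was at 42.6 and 102. Of 6 pluripotency genes, 6, 4, 3 and 2 were at 1 FPKM or more in BC1, APLNR+ cells, HEPs and HPCs. Of 24 endothelial genes, 24 were at 1 FPKM or more in HEPs and 19 in HPCs. Of 12 hematopoietic genes, 9 were so in HEPs and 11 in HPCs, and PTPRC (CD45), a defining leukocyte marker, was near 0 throughout. In bulk RNA of a sorted population, fewer cells of a type and less RNA per cell cannot be told apart.

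The complex bridges E-boxes and GATA sites. Shown next are 5 start regions of TAL1, LYL1, GFI1B and GFI1, for such letters or for letters that RUNX or GFI1 proteins bind. These 5 regions were chosen after the matches were seen. RefSeq windows of 300 bases, from 250 before to 50 after a gene's start, were matched for 9 of the 10 genes, with 26 windows in all, and none was matched for LMO2. Each sequence is on the GRCh38.p14 assembly and runs 5′ to 3′ on the strand of the gene, and capitals mark the letters of a searched motif on either strand. The TAL1 window at chr1:47232286-47232585 (minus strand) holds 2 GATA sites, which here means the letters GATAAG on either strand, or else those of AGATAA, with overlapping matches counted once. The TAL1 window at chr1:47231666-47231965 (minus strand) holds TGTGGT, the letters that RUNX factors bind, 3 times. The LYL1 window at chr19:13102809-13103108 (minus strand) holds 2 GATA sites, one of which is part of CTGNNNNNNNNNGATA, letters in which part of an E-box and a GATA site are spaced as the complex is known to bind them. The GFI1B window at chr9:132978444-132978743 (plus strand) holds the same spaced letters. The GFI1 window at chr1:92486876-92487175 (minus strand) holds AATCNNNGC, the core that GFI1 proteins themselves bind.
TAL1, chr1:47232286-47232585: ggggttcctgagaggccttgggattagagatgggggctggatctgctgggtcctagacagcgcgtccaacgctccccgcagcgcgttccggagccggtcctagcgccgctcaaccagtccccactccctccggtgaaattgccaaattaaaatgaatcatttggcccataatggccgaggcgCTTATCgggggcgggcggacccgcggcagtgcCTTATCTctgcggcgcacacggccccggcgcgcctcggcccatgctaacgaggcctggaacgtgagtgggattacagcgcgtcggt
TAL1, chr1:47231666-47231965: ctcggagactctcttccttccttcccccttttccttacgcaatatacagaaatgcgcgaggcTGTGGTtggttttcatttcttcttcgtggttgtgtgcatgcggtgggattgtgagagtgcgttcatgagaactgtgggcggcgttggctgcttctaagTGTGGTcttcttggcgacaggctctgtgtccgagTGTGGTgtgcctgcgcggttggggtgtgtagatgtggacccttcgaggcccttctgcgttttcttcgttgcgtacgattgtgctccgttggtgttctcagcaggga
LYL1, chr19:13102809-13103108: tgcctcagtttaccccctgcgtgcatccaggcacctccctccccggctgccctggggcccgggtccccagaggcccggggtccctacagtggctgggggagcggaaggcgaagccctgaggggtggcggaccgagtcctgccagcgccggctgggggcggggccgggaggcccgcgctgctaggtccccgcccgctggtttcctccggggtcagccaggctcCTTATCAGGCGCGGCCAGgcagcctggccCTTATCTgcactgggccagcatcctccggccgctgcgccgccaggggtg
GFI1B, chr9:132978444-132978743: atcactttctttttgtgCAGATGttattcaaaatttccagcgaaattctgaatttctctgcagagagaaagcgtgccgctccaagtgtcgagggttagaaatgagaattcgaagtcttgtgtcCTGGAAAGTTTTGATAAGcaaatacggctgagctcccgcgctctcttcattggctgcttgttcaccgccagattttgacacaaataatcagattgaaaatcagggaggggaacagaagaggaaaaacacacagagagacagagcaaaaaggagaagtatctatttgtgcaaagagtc
GFI1, chr1:92486876-92487175: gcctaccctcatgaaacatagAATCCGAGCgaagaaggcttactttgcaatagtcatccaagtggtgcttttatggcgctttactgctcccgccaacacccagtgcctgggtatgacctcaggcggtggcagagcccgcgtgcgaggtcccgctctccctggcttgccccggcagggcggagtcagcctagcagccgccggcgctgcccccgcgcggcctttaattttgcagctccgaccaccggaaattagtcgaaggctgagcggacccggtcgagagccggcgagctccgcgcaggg

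Of all 35116 RefSeq windows of this length, 13.6% held at least 1 GATA site and 1.69% held at least 2. The letters TGTGGT were in 13.1% of windows, and 0.125% held them 3 or more times. The spaced letters CTGNNNNNNNNNGATA were in 1.87% of windows and AATCNNNGC was in 11.0%, so the latter match is common. GATA sites were also in 2 of the 10 TCF4 windows and in none of the windows of LDB1, TCF3, TCF12, CBFA2T3 and GFI1. The other TAL1 window and the other GFI1B window held none. In all, 5 of the 26 windows of the members held a GATA site, to be read against the 13.6% of all windows. E-boxes of the form CANNTG were in 68.7% of all windows. They are marked only in 4 forms, which are CAGCTG, in 17.9% of windows, then CAGATG, in 14.7%, then CACCTG, in 20.6%, and CACGTG, in 7.26%. The GFI1B window holds CAGATG. Also searched were CCGGAAG, the ETS letters, found in 10.3% of windows, and the spaced letters with 7 or 8 free bases, found in 1.91% and 1.98%. A match is a description of letters, and binding was not measured.

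A gene is said to have risen or fallen when log2(FPKM + 1) differed by at least 1 between 2 libraries. This scale understates changes of low genes. From BC1 to APLNR+ cells 2 of the 10 genes rose (LYL1 and TCF4) and none fell, where 9.15% of the 17137 genes at 1 FPKM or more in any library rose and 9.32% fell. From APLNR+ cells to HEPs 6 rose (TAL1, LYL1, LMO2, CBFA2T3, GFI1 and GFI1B) and 1 fell (TCF4), against 13.0% and 11.4% of all genes. From HEPs to HPCs 5 rose (TAL1, LYL1, LDB1, CBFA2T3 and GFI1B) and 1 fell (GFI1), against 7.63% and 13.5%. Between BC1 and HPCs, 7 rose and TCF3 alone fell by this rule, against 15.2% and 18.9%. The median change of the 10 genes was 0.24, 4.19 and 0.91 at the 3 steps in turn, where that of all genes was 0.00, 0.01 and -0.08. The step into HEPs therefore held the largest median change, and the plot of levels by population shows where each gene moved.

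**Figure D1:**
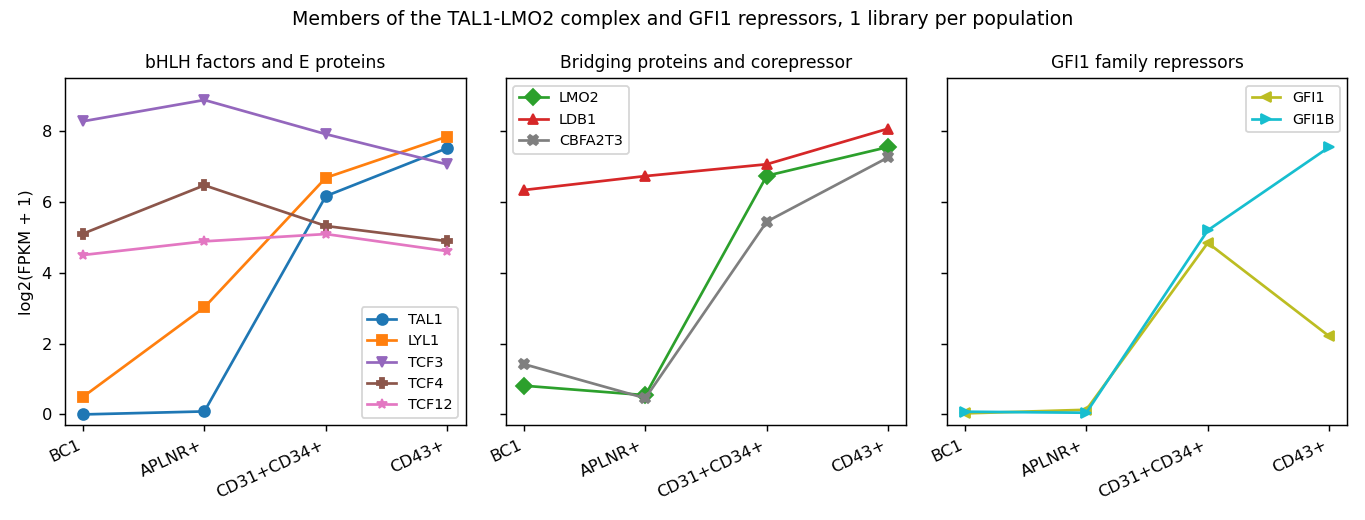
Levels of the 10 genes on a log2(FPKM + 1) axis in the 4 libraries, 1 library per population, with each point 1 library. TAL1, GFI1 and GFI1B lie near 0 in BC1 and APLNR+ cells, LMO2 and CBFA2T3 lie below 2 there, and all 5 rise in HEPs, GFI1 falls again in HPCs, and TCF3 declines from 474 FPKM in APLNR+ cells to 133 in HPCs.

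TAL1 (chr1:47216290-47232220, minus strand) is the factor after which the complex is named and is required for all blood lineages. It was listed at 0 FPKM in BC1 and was 0.0608 in APLNR+ cells, 71.2 in HEPs and 184 in HPCs. The APLNR+ value stood for 6 fragments, so the gene was all but undetected before HEPs. The level in HEPs was 1171-fold that in APLNR+ cells, with a 95% counting interval of 532 to 3155, and at least 2131-fold that in BC1. From HEPs to HPCs it rose 2.58-fold (2.52 to 2.65). Such intervals cover counting error only.

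LYL1 (chr19:13099033-13103161, minus strand) is the closest relative of TAL1 and can take its place in the complex. It was at 0.411 FPKM in BC1, 7.16 in APLNR+ cells, 102 in HEPs and 231 in HPCs. LYL1 was thus the one of the pair that was already detected in mesoderm, on 143 fragments against 8 in BC1. Its rises were 17.4-fold (8.13 to 38.8), 14.3-fold (12.1 to 17.1) and 2.25-fold (2.14 to 2.37) at the 3 steps. The interval of each of these folds excluded 1.

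The balance of the pair changed with the population. LYL1 exceeded TAL1 118-fold in APLNR+ cells (52.1 to 322), 1.44-fold in HEPs (1.37 to 1.51) and 1.26-fold in HPCs (1.21 to 1.30). The LYL1 excess therefore shrank as TAL1 came up, and LYL1 remained the higher of the pair in all 4 libraries. Their summed level was 0.411, 7.22, 174 and 415 FPKM from BC1 to HPCs.

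LMO2 (chr11:33858576-33892289, minus strand) is the LIM-only bridge between the basic helix-loop-helix pair and LDB1. It was at 0.756 FPKM in BC1, 0.459 in APLNR+ cells, 107 in HEPs and 188 in HPCs. The values in BC1 and APLNR+ cells were not told apart, since the interval of their ratio (0.306 to 1.15) included 1. The level in HEPs was 232-fold that in APLNR+ cells (145 to 399). From HEPs to HPCs the level was 1.76-fold higher (1.70 to 1.83), a change of 0.81 on the log2 scale that did not reach the threshold.

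LDB1 (chr10:102107560-102120453, minus strand) is the widely expressed dimerizing adaptor that joins LMO2 to other complexes. It was at 80.3 FPKM in BC1, 106 in APLNR+ cells, 134 in HEPs and 269.7 in HPCs. The gene was present before its partner LMO2 and was highest in HPCs, with a last step of 2.02-fold (1.95 to 2.08), or 1.01 on the log2 scale, only just past the threshold. When each library was rescaled to the same total FPKM, this change was 0.89 and no longer passed. LDB1 exceeded LMO2 106-fold in BC1 and 231-fold in APLNR+ cells, and 1.26-fold and 1.44-fold in HEPs and HPCs. In HPCs LDB1 was the highest of the 10 genes, ahead of LYL1 by 1.17-fold (1.13 to 1.21).

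The E proteins are the widely expressed partners that TAL1 and LYL1 need for DNA binding, and they behaved differently from the blood-restricted subunits. TCF3 (chr19:1609290-1652605, minus strand), the gene of E12 and E47, was at 312, 474, 242 and 133 FPKM from BC1 to HPCs. Its highest level was in APLNR+ cells and its lowest in HPCs, and the change from BC1 to HPCs was -1.22 on the log2 scale, a fall. The step from APLNR+ cells to HEPs was 1.96-fold downward (1.90 to 2.01), or -0.96 on the log2 scale, just short of the threshold. With median-of-ratios scaling TCF3 passed it.

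TCF4 (chr18:55222331-55664787, minus strand), the gene of E2-2, was at 33.6, 88.2, 39.2 and 28.8 FPKM from BC1 to HPCs. It rose 2.63-fold into APLNR+ cells (2.43 to 2.84) and fell 2.25-fold into HEPs (2.10 to 2.42). APLNR+ cells thus stood apart from the other 3 libraries. TCF12 (chr15:56918623-57299281, plus strand), the gene of HEB, was at 21.7, 28.7, 33.3 and 23.5 FPKM and changed by less than the threshold at each step. Its values in BC1 and HPCs differed 1.08-fold, with an interval (0.974 to 1.20) that included 1. That interval rests on a median coding transcript of 1809 bases, where the longest has 6061, and may be too wide.

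TCF3 was the main E protein in every library, although its share of the summed E protein level declined. It made up 84.9% of the summed FPKM in BC1, 80.2% in APLNR+ cells, 77.0% in HEPs and 71.8% in HPCs. TCF12 made up 5.93%, 4.86%, 10.6% and 12.7%, and TCF4 made up 9.15%, 14.9%, 12.5% and 15.5%. The summed level went from 367 FPKM in BC1 to 591 in APLNR+ cells, 315 in HEPs and 186 in HPCs. Set against the summed TAL1 and LYL1 level, E proteins were in excess 894-fold in BC1, 81.8-fold in APLNR+ cells and 1.81-fold in HEPs. In HPCs the ratio was 0.447. The BC1 ratio is imprecise, since it rests on 8 LYL1 fragments with TAL1 listed at 0. HPCs were the only population in which the mRNA of TAL1 and LYL1 together exceeded that of the E proteins.

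ID proteins are helix-loop-helix proteins without a DNA-binding region that sequester E proteins, and all 4 were examined beside them. ID1 was at 108, 49.5, 636 and 18.7 FPKM from BC1 to HPCs, ID2 at 14.9, 65.6, 321 and 67.3, ID3 at 35.5, 42.4, 159 and 3.30, and ID4 at 3.95, 11.0, 12.0 and 7.19. ID1, ID2 and ID3 were each highest in HEPs, and the 3 rose into HEPs and fell into HPCs. ID1 rose 12.9-fold into HEPs (12.0 to 13.8) and fell 34.1-fold into HPCs, and ID3 fell 48.1-fold. ID4 was unlike these 3, with a ratio of 1.09 (0.962 to 1.23) between HEPs and APLNR+ cells.

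The summed ID level was 162, 169, 1128 and 96.5 FPKM from BC1 to HPCs. The ratio of summed E proteins to summed ID was 2.26 in BC1, 3.50 in APLNR+ cells, 0.279 in HEPs and 1.92 in HPCs. HEPs were therefore the only population in which ID mRNA exceeded E protein mRNA. This was also the population in which TAL1, LMO2, GFI1 and GFI1B first exceeded 1 FPKM, and a link with the ID level was not tested.

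**Figure D2:**
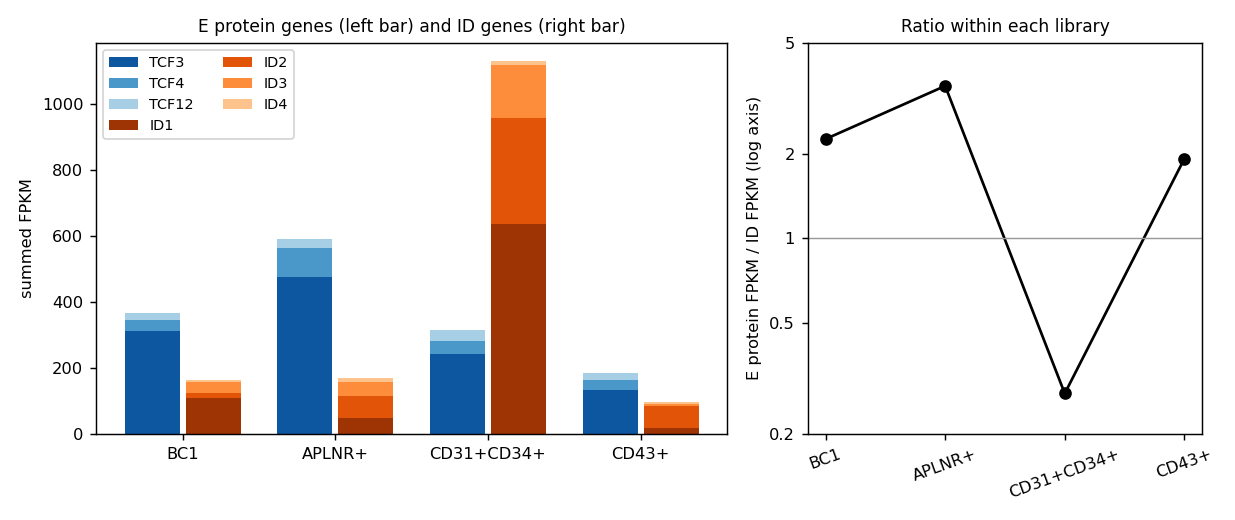
Left, summed FPKM of the E protein genes (blue bars) and of the ID genes (orange bars) in each library, divided by gene. Right, the ratio of both sums on a log axis, which is 3.50 in APLNR+ cells, 0.279 in HEPs and 1.92 in HPCs.

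CBFA2T3 (chr16:88874858-88977204, minus strand) is the corepressor of the complex. It was at 1.68 FPKM in BC1, 0.375 in APLNR+ cells, 42.8 in HEPs and 153 in HPCs. By a median coding transcript of 601.5 bases, the difference between BC1 and APLNR+ cells rested on 11 and 3 fragments. This was a 4.48-fold drop with an interval of 1.05 to 22.2. The level in HEPs was 114-fold that in APLNR+ cells (35.4 to 509), and HPCs were 3.58-fold above HEPs (3.16 to 4.07). Most of the annotated coding transcripts of CBFA2T3 are short, which makes these intervals too wide and may make the fragment counts too low. With the longest, of 4477 bases, the lower end of the APLNR+ to BC1 ratio was 0.149 rather than 0.045. Among the 6 genes that rose into HEPs, CBFA2T3 and GFI1B had the larger rises from HEPs to HPCs.

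GFI1 (chr1:92474762-92486876, minus strand) was at 0.0209 FPKM in BC1, 0.0958 in APLNR+ cells, 27.9 in HEPs and 3.63 in HPCs. GFI1 was the only one of the 10 genes that fell from HEPs to HPCs by the threshold. TCF3, TCF12 and TCF4 were also lower in HPCs, by 1.82-fold, 1.41-fold and 1.36-fold, which did not reach it. GFI1 was 291-fold higher in HEPs than in APLNR+ cells (129 to 928) and 7.68-fold lower in HPCs than in HEPs (6.63 to 8.97). The BC1 and APLNR+ values stood for 1 and 5 fragments and were not told apart.

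GFI1B (chr9:132944000-132991687, plus strand), the erythroid and megakaryocytic relative of GFI1, was at 0.0552 FPKM in BC1, 0.0338 in APLNR+ cells, 35.9 in HEPs and 187.7 in HPCs. It was on 2 rows of the table. The row at chr9:132944000-132953763 carried the values of BC1 and APLNR+ cells, on 2 fragments and 1 fragment, and was at 0 in HEPs and HPCs, and the row at chr9:132945533-132991687 carried the rest. The ratio between HEPs and APLNR+ cells was 1063, with a wide interval of 212 to 46666. From HEPs to HPCs GFI1B rose 5.23-fold (4.92 to 5.56).

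The related repressors thus moved in opposite directions at the last step. GFI1B exceeded GFI1 1.29-fold in HEPs (1.20 to 1.39) and 51.8-fold in HPCs (44.9 to 60.1). HEPs held both at similar levels, and in HPCs nearly all mRNA of the pair was from GFI1B.

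**Figure D3:**
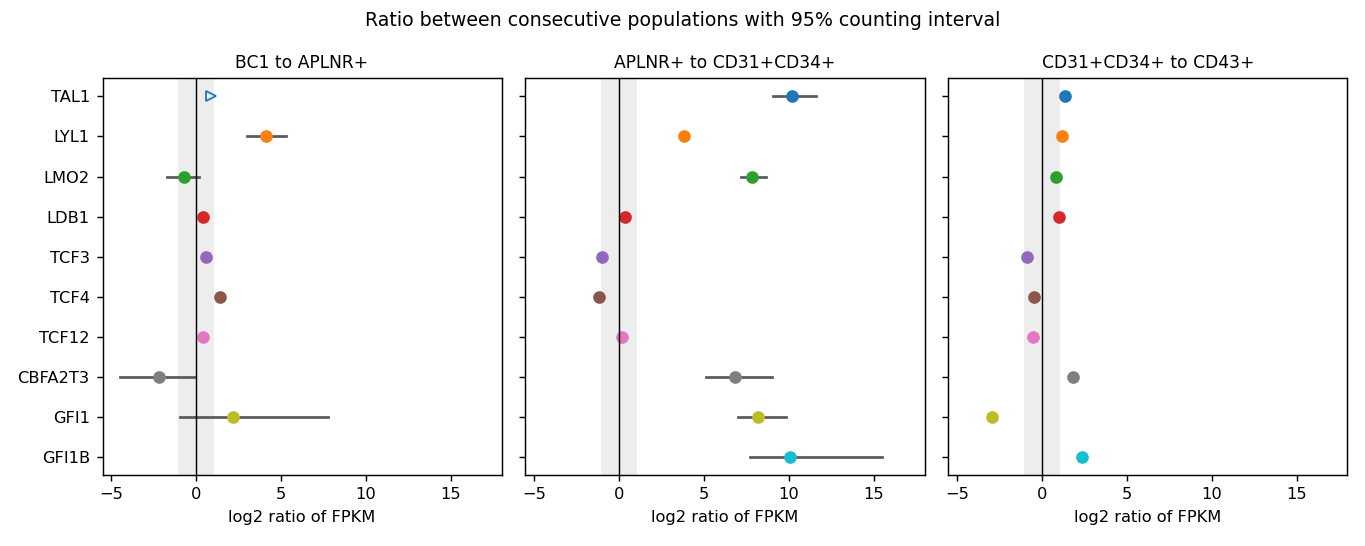
Log2 ratio of FPKM between consecutive populations for the 10 genes, 1 panel per step, with points for the ratio, lines for its 95% counting interval, an open triangle for a lower bound and a grey band from -1 to 1. GFI1B has no point at the first step because both values were at or under 3 fragments, and at the last step GFI1 lies to the left of the band and GFI1B, CBFA2T3, TAL1, LYL1 and, just past its edge, LDB1 lie to the right of it.

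The fall of GFI1 was set beside 24 endothelial genes. Of these, 22 rose and none fell from APLNR+ cells to HEPs (median change 3.99), and none rose and 21 fell from HEPs to HPCs (median -2.61, against -0.08 over all genes). PLVAP, a protein of endothelial fenestrae, was at 6.50, 1450 and 52.8 FPKM in APLNR+ cells, HEPs and HPCs. SOX7, an endothelial transcription factor, was at 1.16, 84.5 and 0.917 FPKM, and MMRN2, an endothelial matrix protein, at 0.363, 71.5 and 1.91. CDH5, the endothelial cadherin, went from 0.663 to 224 FPKM and then to 9.38. GFI1, like these genes, was highest in HEPs. Smooth muscle and mural genes moved at the same step, with 4 of the 5 at 1 FPKM or more falling (median -1.78). RGS5, a pericyte gene, was at 12.3, 393 and 3.58 FPKM in APLNR+ cells, HEPs and HPCs, and TAGLN, a smooth muscle gene, at 117, 74.7 and 3.52. PECAM1 was 1.36-fold higher in HPCs (1.25 to 1.48), below the threshold. The endothelial genes summed to 4366 FPKM in HEPs and 831 in HPCs, and whether cell composition accounts for the fall of GFI1 was not tested.

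**Figure D4:**
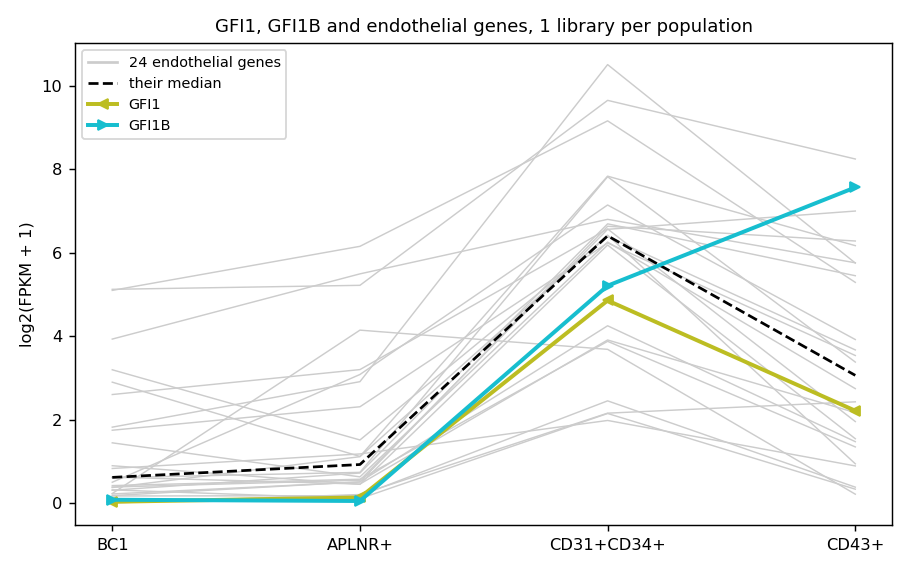
Levels of GFI1 and GFI1B, of the 24 endothelial genes (grey lines) and of their median (dashed line) on a log2(FPKM + 1) axis in the 4 libraries. GFI1 fell by 2.64 from HEPs to HPCs, where the median of the changes of the single endothelial genes was -2.61, and GFI1B rose by 2.35. The dashed line is a median of levels and fell by more, with a median of 83.5 FPKM in HEPs and 7.53 in HPCs.

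Within HEPs the levels ran from 242 FPKM for TCF3 and 134 for LDB1 down to 27.9 for GFI1. LMO2 and LYL1 differed 1.04-fold (0.988 to 1.10), CBFA2T3 and TCF4 1.09-fold (0.964 to 1.24), and GFI1B and TCF12 1.08-fold (0.995 to 1.17). None of these neighbours in the order of levels was told apart by these intervals. For CBFA2T3, TCF4 and TCF12 the intervals rest on median coding transcripts of 601.5, 1552 and 1809 bases. The longest have 4477, 8343 and 6061 bases, so the intervals of the last 2 pairs may be too wide to tell them apart. The other neighbours in HEPs were told apart, with ratios from 1.09 for TCF4 over GFI1B (1.01 to 1.18) to 1.81 for TCF3 over LDB1 (1.75 to 1.87). In HPCs the order was LDB1, LYL1, LMO2, GFI1B, TAL1, CBFA2T3, TCF3, TCF4, TCF12 and GFI1. LMO2 and GFI1B were at the same level there, with an interval of 0.967 to 1.04 for their ratio, and GFI1B and TAL1 differed 1.02-fold (0.991 to 1.05). The order in BC1 began with TCF3, LDB1, TCF4 and TCF12, the 4 genes above 5 FPKM in that library, and the same 4 led in APLNR+ cells, where LYL1 at 7.16 FPKM came next.

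HEPs already held a large part of the HPC level for most subunits. As a percentage of the HPC level, LMO2 was at 56.7%, LDB1 at 49.6%, LYL1 at 44.4%, TAL1 at 38.7%, CBFA2T3 at 27.9% and GFI1B at 19.1%. LDB1 was already at 80.3 FPKM in BC1 and 106 in APLNR+ cells, so its percentage was not gained in HEPs alone. For the 11 hematopoietic genes at 1 FPKM or more in any library, the percentage ranged from 0.0759% for the platelet gene PPBP to 43.7% for RUNX1, with a median of 7.05%. SPN, the gene of the CD43 sort marker, was at 12.7%, ITGA2B (CD41) at 6.20% and embryonic globin HBE1 at 0.201%. LMO2 and LDB1 thus lay above all 11 of these genes, LYL1 lay close to RUNX1, and TAL1, CBFA2T3 and GFI1B lay above their median. Beside RUNX1, the transcription factors of that list were MYB at 38.3%, SPI1 at 30.7% and GATA1 at 7.05%. TAL1 was thus close to MYB, and CBFA2T3 and GFI1B lay below SPI1. Among the partners of the complex, GATA2 (254 FPKM in HEPs and 211 in HPCs) and FLI1 (316 and 367) were closer to their HPC level or above it. The partners GATA1 (13.4 and 189.8) and KLF1 (17.9 and 68.7) were well below theirs. GFI1 was at 768%, and the E proteins TCF3, TCF12 and TCF4 were also above their HPC level, at 182%, 141% and 136%. Whether CD43+ cells were among the sorted CD31+CD34+ cells was not tested.

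The GATA factors and other proteins that join the complex formed a list of 11. At the 3 steps 6, 8 and 3 of the 11 rose and 0, 0 and 3 fell, with median changes of 1.01, 2.81 and -0.26. GATA2, the GATA factor of early progenitors, was at 0.125, 32.0, 254 and 211 FPKM from BC1 to HPCs, so it preceded TAL1. GATA1, the erythroid and megakaryocytic factor, was listed at 0 in BC1 and APLNR+ cells and was at 13.4 and 189.8 FPKM in HEPs and HPCs. GATA2 exceeded GATA1 18.9-fold in HEPs (17.0 to 21.2) and 1.11-fold in HPCs (1.07 to 1.16). GATA3 was at 30.0 FPKM in APLNR+ cells and 40.1 in HEPs and fell 14.3-fold into HPCs.

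Other partners split at the last step. FLI1, an ETS factor, rose 107-fold into HEPs (94.1 to 123), from 2.95 to 316 FPKM. ERG, its relative, was at 0.543 FPKM in APLNR+ cells, 75.1 in HEPs and 5.68 in HPCs, a fall of 13.2-fold at the end. KLF1, the erythroid zinc finger factor, went from 17.9 to 68.7 FPKM and RUNX1 from 60.1 to 137 between HEPs and HPCs, and both rose. SSBP3, which shields LDB1 from degradation, fell from 96.3 to 44.6 FPKM.

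Close relatives of the members showed whether another gene of the family was present where the member was not. LDB2, the relative of LDB1, was at 29.6, 133, 222 and 6.05 FPKM from BC1 to HPCs. LDB1 exceeded it 2.71-fold in BC1 (2.54 to 2.90). LDB2 exceeded LDB1 1.25-fold in APLNR+ cells (1.21 to 1.30) and 1.66-fold in HEPs (1.61 to 1.72), whereas LDB1 exceeded it 44.6-fold in HPCs (39.5 to 50.4). RUNX1T1, the relative of CBFA2T3, was at 13.1, 9.40, 57.4 and 13.1 FPKM. It exceeded CBFA2T3 1.34-fold in HEPs (1.17 to 1.54), and CBFA2T3 exceeded it 11.7-fold in HPCs (9.78 to 14.1). In both pairs the relative was the higher in HEPs and the member in HPCs.

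LMO4, the relative of LMO2, was at 34.6, 32.3, 24.4 and 58.6 FPKM from BC1 to HPCs. It exceeded LMO2 45.8-fold in BC1 and 70.4-fold in APLNR+ cells, and LMO2 exceeded it 4.36-fold in HEPs (4.13 to 4.61) and 3.21-fold in HPCs (3.08 to 3.34). LMO2 therefore passed LMO4 between APLNR+ cells and HEPs. CBFA2T2 was at 12.1, 26.8, 47.6 and 29.3 FPKM, and in HEPs the interval of its ratio to CBFA2T3 (1.11, 0.995 to 1.25) included 1. This interval too may be too wide, given the short CBFA2T3 transcripts. TAL2, NHLH1 and LMO1 stayed below 1 FPKM in all 4 libraries. Of the 6 relatives that reached 1 FPKM, 3, 1 and 1 rose and 1, 0 and 2 fell at the 3 steps.

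**Figure D5:**
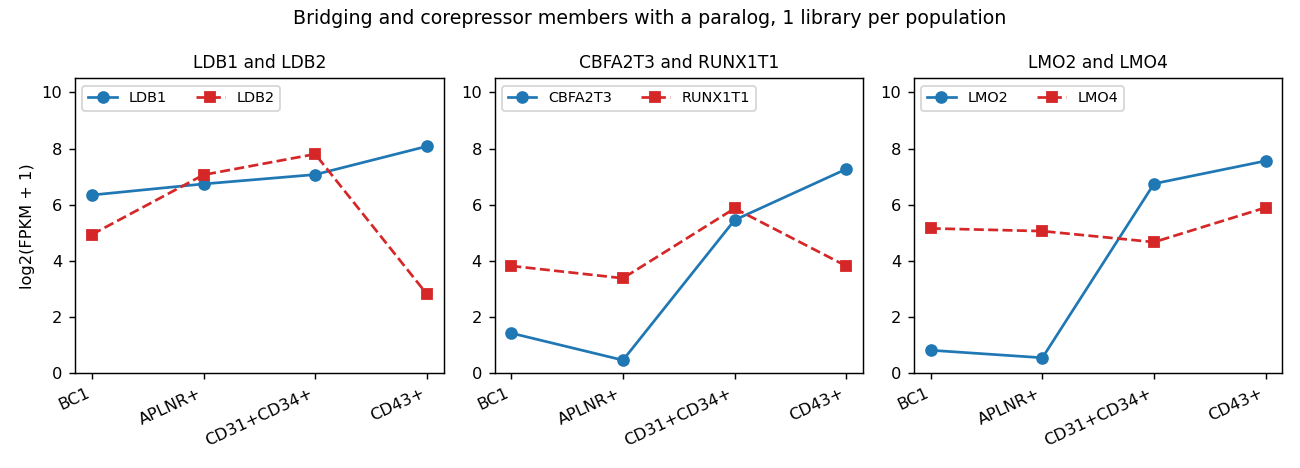
Levels of LDB1 with LDB2, CBFA2T3 with RUNX1T1 and LMO2 with LMO4 on log2(FPKM + 1) axes in the 4 libraries, 1 library per population. LDB2 and RUNX1T1 lie above LDB1 and CBFA2T3 in HEPs and far below them in HPCs, and LMO2 passes LMO4 between APLNR+ cells and HEPs.

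Corepressors that GFI1 proteins and CBFA2T3 recruit were present throughout. Of 16 such genes none changed at the first step, 4 rose and 1 fell into HEPs, and 1 rose and none fell into HPCs, with medians of -0.06, -0.05 and -0.24. KDM1A, the histone demethylase LSD1, was at 99.1 FPKM in BC1 and APLNR+ cells, 63.4 in HEPs and 52.9 in HPCs, with no step past the threshold. RCOR2, a partner of KDM1A, fell 3.85-fold into HEPs, from 69.6 to 18.1 FPKM, and PHF21A, another protein of that complex, rose 2.66-fold (1.97 to 3.64). ZMYND8 rose into HEPs and again into HPCs and reached 91.1 FPKM. The rises and falls of this list are to be read against the shares of all genes given above, 13.0% and 11.4% into HEPs and 7.63% and 13.5% into HPCs.

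A list of 18 known erythroid and megakaryocytic targets of the complex was followed as well. It includes LYL1 itself and the partners KLF1 and RUNX1, and 17 of the 18 reached 1 FPKM in some library. At the 3 steps 3, 13 and 14 of the 17 rose and 4, 0 and 0 fell, with medians of 0.00, 1.77 and 1.88. Platelet factor PF4 went from 14.4 FPKM in HEPs to 1674 in HPCs, a rise of 116-fold (96.5 to 141), and the platelet receptor gene GP9 from 0.625 to 53.2. ALAS2, the erythroid heme synthesis enzyme, went from 3.85 to 126 FPKM. KIT and EPOR, receptors of stem cell factor and erythropoietin, differed by -0.20 and -0.20 on the log2 scale between HEPs and HPCs, below the threshold. Of the 6 lymphoid genes examined none reached 1 FPKM in any library.

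The nearest protein-coding genes on each side were examined for TAL1, LYL1, LMO2, GFI1 and GFI1B. STIL, 17919 bases from TAL1, was between 6.51 and 11.5 FPKM in all 4 libraries. PDZK1IP1, 25246 bases on the other side and one of the listed targets, went from 0.259 FPKM in BC1 to 1.20, 3.11 and 6.29, with each step below the threshold. TRMT1, 1741 bases from LYL1, was at 79.3 FPKM in APLNR+ cells, 20.4 in HEPs and 52.0 in HPCs. It thus fell into HEPs, where LYL1 rose, and rose into HPCs as LYL1 did. NFIX, 237 bases from LYL1, reached 2.63 FPKM in HPCs. EVI5, on one side of GFI1, was at 4.30 FPKM in HEPs and 1.25 in HPCs and so also fell. RPAP2, on the other side of GFI1, was at 7.52 and 5.87 FPKM there, a change below the threshold. The neighbours of LMO2 (FBXO3 and CAPRIN1) and of GFI1B (SPACA9 and GTF3C5) did not reach the threshold at any step.

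Some annotated genes overlap the members, and whether fragments were counted by strand is not given in the sources used here. AL135960.1, an antisense transcript inside TAL1, was listed at 0 in BC1 and was at 0.0123, 3.52 and 7.71 FPKM in the sorted populations. AC132216.1 inside LMO2 was at 2.19 FPKM in HPCs and at 0 elsewhere. TSC1, which overlaps the start of GFI1B on the opposite strand, was between 7.83 and 11.9 FPKM in all 4 libraries. Those shared stretches cannot be assigned to one gene without strand.

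The genes whose profiles lay closest to a member were found among 11040 protein-coding genes at 5 FPKM or more in at least 1 library, by the root mean squared difference of centred log2(FPKM + 1) over the 4 libraries. For TAL1 they were ARHGDIB at 0.21, LMO2 at 0.28 and PECAM1 at 0.41. For LMO2 they were PECAM1 at 0.22, GMFG at 0.27 and LCP2 at 0.28, and for LYL1 they were RUNX1 at 0.16, NRGN at 0.51 and BTK at 0.66. GFI1B lay closest to CMTM5 at 0.19, RHAG at 0.31 and FERMT3 at 0.37. GFI1 lay closest to ECM1 at 0.24, MYZAP at 0.25 and CD93 at 0.30, the last an endothelial surface receptor. The likeness rests on 4 points per gene.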

How the data were processed

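RNA was sequenced in 4 libraries, 1 from BC1 cells and 1 from each of 3 sorted populations. The authors deposited gene-level FPKM values in 1 table. The submitters' processing notes name BWA, Bowtie, RSEM and hg19 without role or version, but of 58274 identifiers 55647 matched GENCODE release 29 with the same version, and 55645 of these had its start and end on GRCh38, and coordinates therefore follow GRCh38 and count from 1. Rows of 1 identifier were summed, values were analysed as log2(FPKM + 1), and the 17137 genes at 1 FPKM or more in at least 1 library were kept, which included all 10 members. Columns were assigned to populations by their names.

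With 1 library per population no test was run. A change of at least 1 on the log2 scale was called. Depth was recovered from the steps between low FPKM values of genes with a single transcript of at least 1000 bases, and from 84.4% to 86.3% of those values lay within 0.1 of a whole number of fragments. Fragments of a gene were approximated from its median protein-coding transcript length, and folds were given exact Clopper-Pearson 95% intervals, or as a lower bound against a floor of 3 fragments per library where a value was 0. Intervals and floors cover counting error only, not variation between cultures or sorts. The depth recovery and the intervals were tested on simulated data with known transcript lengths, so an error in the assumed length was not tested.

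The rule for named genes took the 10 members, the ID genes, the sort markers, nearest protein-coding neighbours, the 3 most alike profiles and, in each list, the largest 3 rises and falls among genes at 5 FPKM or more. Not every list gene that the rule took is printed, and which were printed, with some list genes outside the rule, was chosen after their values were seen. Members and lists were chosen with earlier results of these data known. Alternatives were another pseudocount, threshold, scaling, filter, call rule, row choice and transcript length. Python 3.11.15, NumPy 2.4.6, pandas 2.3.3, SciPy 1.17.1 and matplotlib 3.10.9 were used. Promoter windows came from RefSeq on GRCh38.p14.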

Additional observations from a re-analysis of the deposited data

How the results depend on the processing

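No paired analysis was possible because each population had 1 library, and for the same reason no replicate could be left out. No change of a member turned its direction under any alternative run. The number of genes that fell from BC1 to APLNR+ cells was 0 and became 1 (CBFA2T3) with a pseudocount of 0.1, with libraries rescaled to a total of 1000000 FPKM, and with calls taken from the counting interval and a ratio of at least 2. With a threshold of 2 on the log2 scale, 1 gene rose at that step (LYL1), 0 fell from APLNR+ cells to HEPs and 1 rose from HEPs to HPCs (GFI1B). With median-of-ratios scaling 2 fell from APLNR+ cells to HEPs (TCF3 and TCF4). The 6 genes that rose into HEPs and the fall of GFI1 were called under the pseudocount, scaling and threshold alternatives. The pseudocount of 0.1 moved a member's change by up to 2.91, rescaling by up to 0.68 and median-of-ratios scaling by up to 0.10. Rescaling moved the median change of all genes from HEPs to HPCs from -0.08 to -0.19. Values of a few fragments, such as those of TAL1, GFI1 and GFI1B before HEPs, limit their folds.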
